A study of Mus musculus with 4 samples.

Results

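Fas and 7 further genes of the death receptor machinery were followed in mucosal mast cells of the mouse after stimulation with interleukin 18 (IL-18). The members were Fas, Tnfrsf1a, Tnfrsf1b, Tnfrsf10b, Fadd, Ripk1, Casp8 and Cflar, and every array spot that carried one of these names was taken. They make 8 of the 27962 gene names on the array, and 46 of its 43379 gene spots, which belong to 19 of 41174 probes. The cells were mucosal mast cells differentiated in vitro, and 4 biological replicates were measured as total RNA. On each array, RNA of the IL-18 stimulated cells was labelled with Cy5 and RNA of their own unstimulated control with Cy3, so that 1 array gives 1 ratio of stimulated over unstimulated cells. The dyes were never exchanged, and a probe's dye preference cannot be told apart from the effect of IL-18. The sources used here do not state the mouse strain, the precursor cells, the amount of IL-18 or how long it was applied.

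Death receptors are members of the TNF receptor superfamily that carry a death domain in their cytoplasmic tail. Ligand-bound Fas and Tnfrsf10b recruit the adaptor Fadd, which binds and activates the protease caspase 8. Cflar, also called c-FLIP, resembles caspase 8 and controls its activation at the same complex. Ripk1 is the kinase that Tnfrsf1a recruits and that can signal to NF-kB or to cell death, while Tnfrsf1b has no death domain. In mast cells, IL-18 binds a receptor of the IL-1 receptor family that signals through MyD88 to NF-kB.

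Between 49.9% and 54.0% of gene spots were well above background in Cy3, between 57.9% and 62.7% in Cy5, and no gene spot was saturated. All 10 mast cell markers searched were well above background in both channels on every array, and 4 of them were higher and 2 lower after IL-18. Of the markers of other cells, 1 of 6 T cell, 1 of 5 B cell, 1 of 3 NK cell and 1 of 4 fibroblast genes were so in both channels on every array, against 5 of 5 macrophage genes, among which Adgre1 was higher by 0.28 on the log2 scale (limma, adjusted p = 0.024). The summed net signal of the macrophage genes lay between 1622 and 1971 units in Cy3 and between 2895 and 4006 in Cy5, before dye normalization. That of the 10 mast cell genes lay between 264054 and 312388 units in Cy3 and between 1.15e+06 and 1.27e+06 in Cy5. Dendritic cells had 2 of 3 such genes, neutrophils 1 of 5, eosinophils 1 of 3, epithelial cells 1 of 3 and basophils 1 of 1. Of these other markers, Ncr1 (0.17) and Mcpt8 (0.41) were also higher and Itgax (-0.21) lower. The part of other cells in the results was not tested.

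Log2 ratios of Cy5 over Cy3 were tested against 0 with limma over all 24101 probes that passed the filter on dim signal, and a probe was called at an adjusted p under 0.05. Of the 19 member probes, 17 passed the filter, and 4 of these were called higher, 3 lower and 10 neither. Among all tested probes 34.2% were called, 18.1% higher and 16.1% lower, so the members' share of 41.2% was near the background. The same sign on all 4 arrays was seen in 9 of the 17 member probes, against 58.3% of all tested probes. Without replicate 2 or without replicate 3, limma called no member probe lower, 3 had an unadjusted p under 0.05 and lay lower, and the calls over all probes fell to 1349 higher and 845 lower, or 1684 and 1237. The median log2 ratio was -0.01 over the 17 member probes and 0.02 over all tested probes. What varied was the size: Fas had the largest ratio of the members, and Cflar had probes called in both directions. The brightest Cflar probe was not called. In these bulk samples, fewer cells of a type and less RNA per cell cannot be told apart.

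The background estimate of replicate 1 bears on several values. On that array a few spots had very bright surroundings, with a net signal as low as -32191 units in Cy3, and the background fitted over all spots came to -381 in Cy3 and -277 in Cy5, where the 5th percentile of net signal was 40.4 and 7.87. Without spots whose surroundings the scanner software flagged as non-uniform, 141 gene spots on that array, the fitted background was 29.6 and -4.82. The fit over all spots is the designed one and comes first. The second fit was made after the member values had been seen, because the Fas ratio of replicate 1 was the lowest of the 4 although its net signals had the highest ratio. It called 48.1% of 23976 probes, 24.1% higher and 24% lower, and 5 member probes higher and 3 lower. Values of the second fit are marked "with bright surroundings left out".

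Fas, the receptor whose ligand-bound form starts the caspase 8 cascade, was higher in stimulated cells. The main Fas probe (A_51_P345393, made for NM_007987) is printed 10 times on each array and was well above background in both channels on all 4. Its mean net signal in unstimulated cells was 126, 118, 98.0 and 108 units on replicates 1 to 4, and 785, 460, 451 and 530 units in stimulated cells. The net ratios were 6.24, 3.91, 4.60 and 4.91 before dye normalization. Cy5 was the brighter channel over all gene spots, with means of 2968 to 3737 units per array against 1156 to 1385 in Cy3, and these ratios are not corrected for that. After normalization the log2 ratios were 0.71, 1.32, 1.37 and 1.43. Replicate 1 stood below the other 3, which lay close together. The mean was 1.21 ± 0.33 (SD, n = 4), a 2.31-fold rise with an adjusted p of 0.0016 (limma). It ranked 18 from the top of the 24101 tested probes.

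With bright surroundings left out, the Fas log2 ratios were 1.74, 1.33, 1.40 and 1.45, and replicate 1 was the highest rather than the lowest. The mean was then 1.48 ± 0.18 (SD, n = 4), or 2.78-fold (limma, adjusted p = 9.02e-05). The scanner software's own ratios, which use no offset, gave a mean log2 ratio of 2.12. Every setting tried gave a mean above 0, and scaling the arrays to a common spread was the one setting in which it was not called (1.38, adjusted p = 0.17). In the designed fit, the 10 spots of Fas on 1 array had an SD of 0.074 to 0.086, smaller than the spread between arrays (0.33). A second Fas probe (A_52_P73385, made for the lung cDNA AK086933) was well above background on no array in Cy3 and on 1 of 4 in Cy5, and was not tested.

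**Figure D1:**
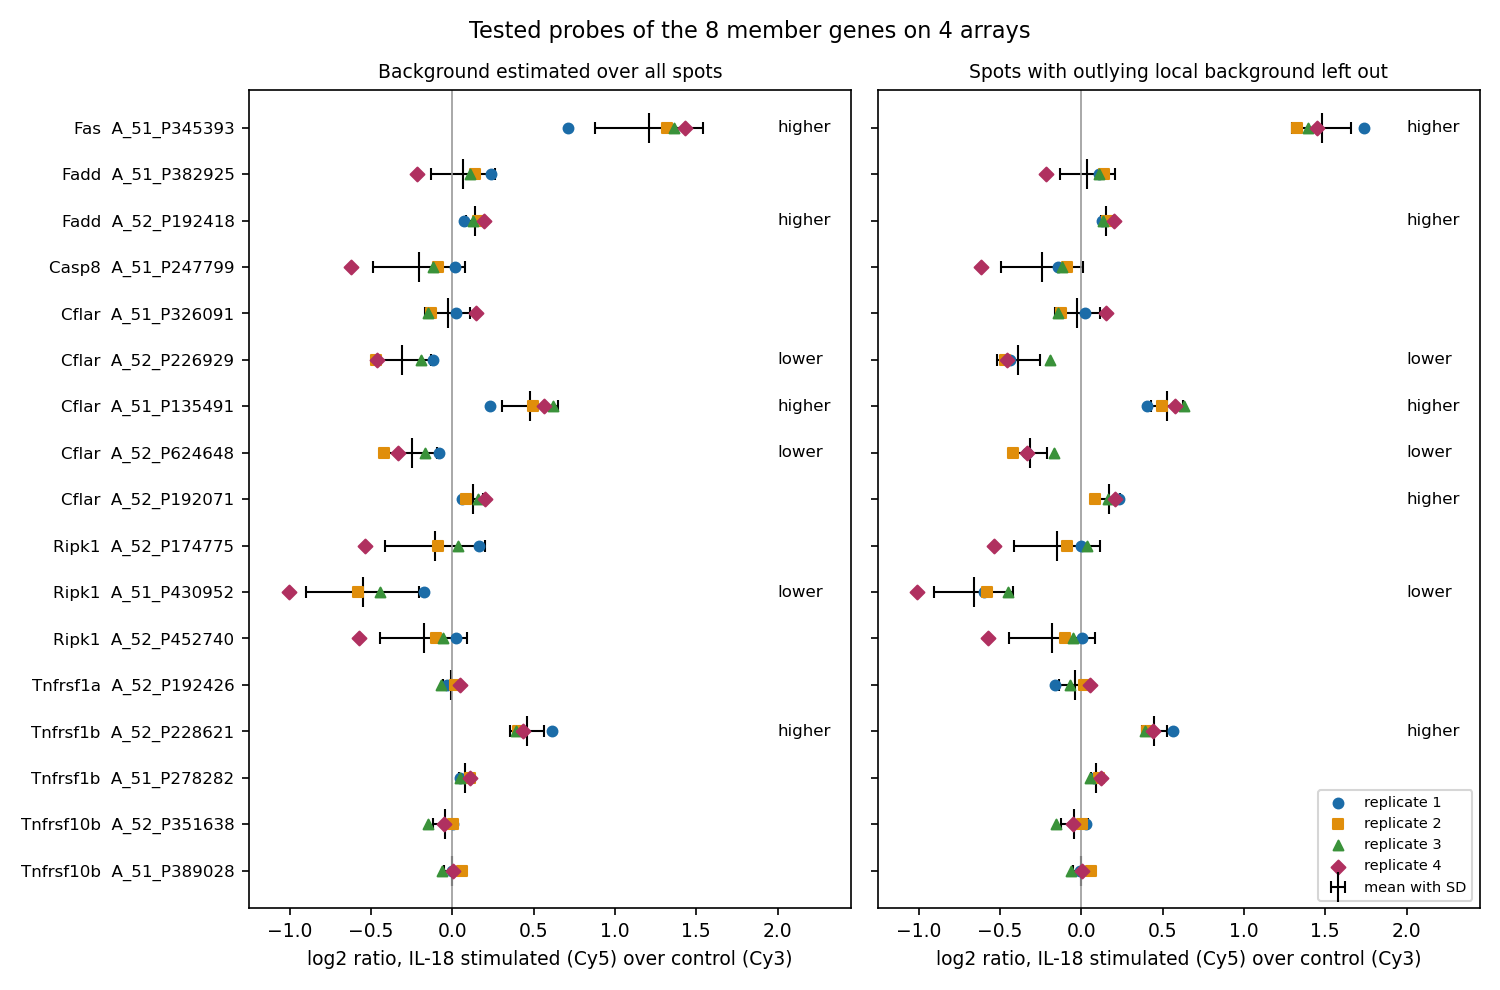
Log2 ratios of Cy5 (IL-18 stimulated) over Cy3 (unstimulated) for the 17 tested member probes, with 1 point per array and the mean with SD over 4 arrays as a bar. The left panel has the background estimated over all spots and the right panel leaves bright surroundings out; words mark probes called at an adjusted p under 0.05. The Fas point of replicate 1 moves from 0.71 to 1.74 between the panels, and replicate 4 is the lowest for Casp8 and the 3 Ripk1 probes.

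Tnfrsf1b, the TNF receptor without a death domain, was also higher, by less. Its probe with 10 spots per array (A_52_P228621) gave log2 ratios of 0.61, 0.40, 0.39 and 0.43. Replicate 1 was the highest here, and all 40 spots lay above 0, between 0.35 and 0.65. The mean was 0.46 ± 0.10 (SD, n = 4), or 1.38-fold (limma, adjusted p = 0.0024), and 0.45 with bright surroundings left out. The gene's other probe (A_51_P278282) had log2 ratios of 0.04, 0.11, 0.05 and 0.11 and was not called (mean 0.08, adjusted p = 0.18). The first probe exceeded the second on all 4 arrays, by 0.38 ± 0.13 (SD).

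Tnfrsf1a, the death domain receptor for TNF, did not pass the test. Its 10 spots gave array means of -0.03, 0.02, -0.07 and 0.05, on both sides of 0, with a mean of -0.01 and a 95% confidence interval from -0.11 to 0.09 (limma, adjusted p = 0.88). The mean was -0.04 with bright surroundings left out. The interval of the designed fit lies below the value of the main Tnfrsf1b probe, but the other Tnfrsf1b probe, at 0.08, lies inside it. The Tnfrsf1a probe was dim, with a mean net signal of 136 units in Cy3 and 175 in Cy5. The main Tnfrsf1b probe had 1057 and 2840. The difference between the receptors was not tested. Tnfrsf10b, the mouse receptor for the ligand TRAIL, had tested probes with means of -0.05 and -0.001, intervals from -0.16 to 0.06 and from -0.10 to 0.10, and values on both sides of 0. The remaining Tnfrsf10b probe was not well above background in either channel on any array and was not tested.

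**Figure D2:**
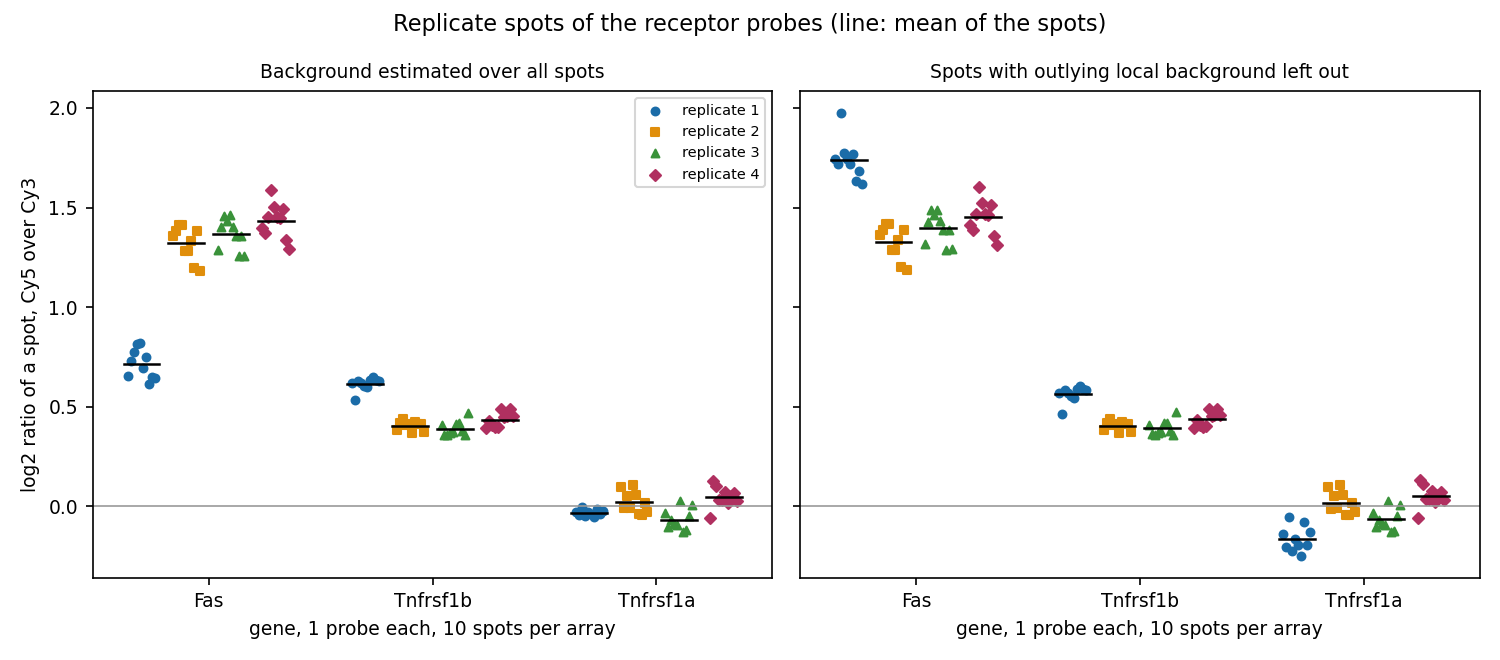
Log2 ratios of the 10 spots per array of the Fas, Tnfrsf1b and Tnfrsf1a probes, with a line at each array's mean and the background estimated over all spots on the left or with bright surroundings left out on the right. Spots of 1 array cluster tightly, with a spread of at most 0.086 (SD) on the left, and the Fas spots of replicate 1 shift as a group between the panels.

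Promoter sequences are shown for the receptors that rose, Fas and Tnfrsf1b, and for Tnfrsf1a, which was not called, because NF-kB and AP-1 are the factors that signalling by IL-18 receptors is known to reach. They are the 250 bases before the annotated start in RefSeq's GRCm38.p6, which had windows for 7 of the 8 members, given 5′ to 3′ on the gene's strand. Capitals mark matches to a short form of the NF-kB motif (GGG, any 5 bases, CC) or to the AP-1 motif TGANTCA, on either strand, with overlapping matches run together.
Fas (chr19:34290409-34290658, plus strand): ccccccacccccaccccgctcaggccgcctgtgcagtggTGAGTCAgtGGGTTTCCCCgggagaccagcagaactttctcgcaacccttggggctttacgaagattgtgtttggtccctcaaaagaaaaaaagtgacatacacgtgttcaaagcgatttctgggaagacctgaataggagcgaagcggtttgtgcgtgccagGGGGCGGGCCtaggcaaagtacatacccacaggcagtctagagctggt
Tnfrsf1b (chr4:145246871-145247120, minus strand): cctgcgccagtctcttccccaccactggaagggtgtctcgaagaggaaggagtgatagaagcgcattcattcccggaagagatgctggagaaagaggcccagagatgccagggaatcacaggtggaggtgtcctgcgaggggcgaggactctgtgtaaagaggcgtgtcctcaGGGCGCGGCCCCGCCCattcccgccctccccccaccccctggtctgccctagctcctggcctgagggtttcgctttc
Tnfrsf1a (chr6:125349473-125349722, plus strand): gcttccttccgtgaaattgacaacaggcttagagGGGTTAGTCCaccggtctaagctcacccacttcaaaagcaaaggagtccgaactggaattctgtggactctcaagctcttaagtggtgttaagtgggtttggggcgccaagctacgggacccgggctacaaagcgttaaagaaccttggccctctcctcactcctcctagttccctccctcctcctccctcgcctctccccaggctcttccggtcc
The Fas window held an AP-1 match 211 bases before the start, followed at 202 by an NF-kB match, GGGTTTCCCC, that reads as a match on both strands, and a further NF-kB match at 48. The Tnfrsf1b window held 3 overlapping NF-kB matches within a GC-rich stretch and the Tnfrsf1a window held 1. Among the 8 member windows, 4 held the NF-kB form and 1 the AP-1 form. Ripk1 had a window with an NF-kB match 140 bases before the start and a further window without a match. The windows of Fadd, Casp8 and Cflar held neither form, and Tnfrsf10b had no window. The NF-kB form occurred in 45.8% of all 32851 windows of this length and the AP-1 form in 6.75%. The stricter NF-kB form (GGGA, any 4 bases, CC), found in 17.6% of windows, occurred in none of the 8 member windows. These are matches of letters and not measured binding.

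Fadd, the adaptor between the receptors and caspase 8, changed little. Its probe A_52_P192418 gave log2 ratios of 0.07, 0.16, 0.13 and 0.19, all above 0, with a mean of 0.14 ± 0.05 (SD, n = 4), or 1.10-fold. It was called higher by a narrow margin (limma, adjusted p = 0.048; 0.15 with an adjusted p of 0.016 with bright surroundings left out), and the call was lost without replicate 2, 3 or 4 (adjusted p = 0.19, 0.16 and 0.094). The other probe, A_51_P382925, gave 0.24, 0.14, 0.11 and -0.22, with replicate 4 below 0 and the other arrays above it (mean 0.07, adjusted p = 0.52). Without replicate 4 this second probe was called, at 0.16 (limma, adjusted p = 0.049), while the first was not. The second probe was the brighter, with a mean net signal of 1096 units in Cy3 and 2174 in Cy5 against 180 and 303.

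Casp8, the initiator protease, was not called. Its log2 ratios were 0.01, -0.09, -0.12 and -0.62, with replicate 4 far below the other 3, and the mean was -0.20 with a 95% confidence interval from -0.45 to 0.04 (limma, adjusted p = 0.16). Without replicate 4 the mean was -0.065. With bright surroundings left out all 4 values were below 0, from -0.62 to -0.09, and the mean of -0.24 again missed the threshold (adjusted p = 0.059).

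Ripk1, the kinase of the Tnfrsf1a complex, was measured by 3 probes made for NM_009068, and 1 of them was lower. Probe A_51_P430952 gave log2 ratios of -0.18, -0.58, -0.44 and -1.01, below 0 on every array. Its mean fell by 0.55 ± 0.35 (SD, n = 4) on the log2 scale (limma, adjusted p = 0.018), and by 0.66 ± 0.24 with bright surroundings left out (adjusted p = 0.0012). The call was lost without replicate 2 or replicate 3 (adjusted p = 0.087 and 0.061). Probe A_52_P174775 had 0.17, -0.09, 0.03 and -0.54, and probe A_52_P452740 had 0.02, -0.10, -0.06 and -0.57. Neither was called (means -0.11 and -0.18, limma, adjusted p = 0.47 and 0.20), and all 3 probes were lowest on replicate 4. The called probe had a mean net signal of 244 units in Cy3 and 212 in Cy5. A_52_P174775, the brightest Ripk1 probe, had 669 and 1093. The called probe lay below A_52_P174775 on all 4 arrays, by 0.45 ± 0.07 (SD), so probes of the same transcript record differed by more than their spread between arrays.

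Cflar, the regulator of caspase 8 that exists as a long and a short protein form, was the 1 member with probes called in both directions, although the lower probes stood above 0 when arrays were only centred on their median. The probe A_51_P135491, made for transcript variant 2 (NM_009805), gave log2 ratios of 0.23, 0.49, 0.62 and 0.57. All were above 0, and the mean rose by 0.48 ± 0.17 (SD, n = 4), or 1.39-fold (limma, adjusted p = 0.0049), and by 0.53 with bright surroundings left out. The other variant 2 probe, A_52_P192071, was also above 0 on all 4 arrays, at 0.06, 0.08, 0.16 and 0.20. It was not called (mean 0.12, adjusted p = 0.073), but was called with bright surroundings left out (0.17, adjusted p = 0.015).

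The probe for transcript variant 1 (A_52_P226929, NM_207653) gave -0.12, -0.47, -0.19 and -0.46, below 0 on every array, and fell by 0.31 ± 0.18 (SD, n = 4) on the log2 scale (limma, adjusted p = 0.020). The probe for the mRNA of CASH alpha (A_52_P624648, Y14041), another name of the protein, gave -0.08, -0.42, -0.17 and -0.33 and fell by 0.25 ± 0.15 (adjusted p = 0.027). With bright surroundings left out they fell by 0.39 and 0.31. The first call was lost without replicate 2 or 3 (adjusted p = 0.11 and 0.058), and the second without replicate 2, 3 or 4 (adjusted p = 0.13, 0.079 and 0.059). The fifth probe (A_51_P326091, for the cDNA BC023121) gave 0.02, -0.13, -0.15 and 0.14 and was not called (mean -0.03). It was the brightest Cflar probe, with a mean net signal of 7157 units in Cy3 against 125 to 454 for the others.

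The called variant 2 probe exceeded the variant 1 probe on all 4 arrays, by 0.35, 0.96, 0.81 and 1.03 on the log2 scale, and with bright surroundings left out by 0.84, 0.97, 0.82 and 1.04. The same probe exceeded the CASH alpha probe on all 4 arrays, by 0.73 ± 0.28 (SD). These pairs were picked for their opposite calls, so their differences are given as a description without a test. Where each probe lies in its transcript was not analysed here.

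The sign of the lower Cflar calls, but not of the lower Ripk1 call, turned with the treatment of brightness. With each array centred on its median and no correction along brightness, the median of all tested probes was 0.43, and 13971 probes were called higher and 176 lower, against 4360 and 3871. On that scale the variant 1 and CASH alpha probes of Cflar had log2 ratios of 0.24 and 0.09 and Ripk1 A_51_P430952 had -0.18. Relative to the median of all probes these were -0.19, -0.34 and -0.61, below it as in the designed fit. Probes without a call in the designed fit moved too, as Cflar A_51_P326091 had 1.06. Fas stood 1.22 and the main Tnfrsf1b probe 0.81 above that median.

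**Figure D3:**
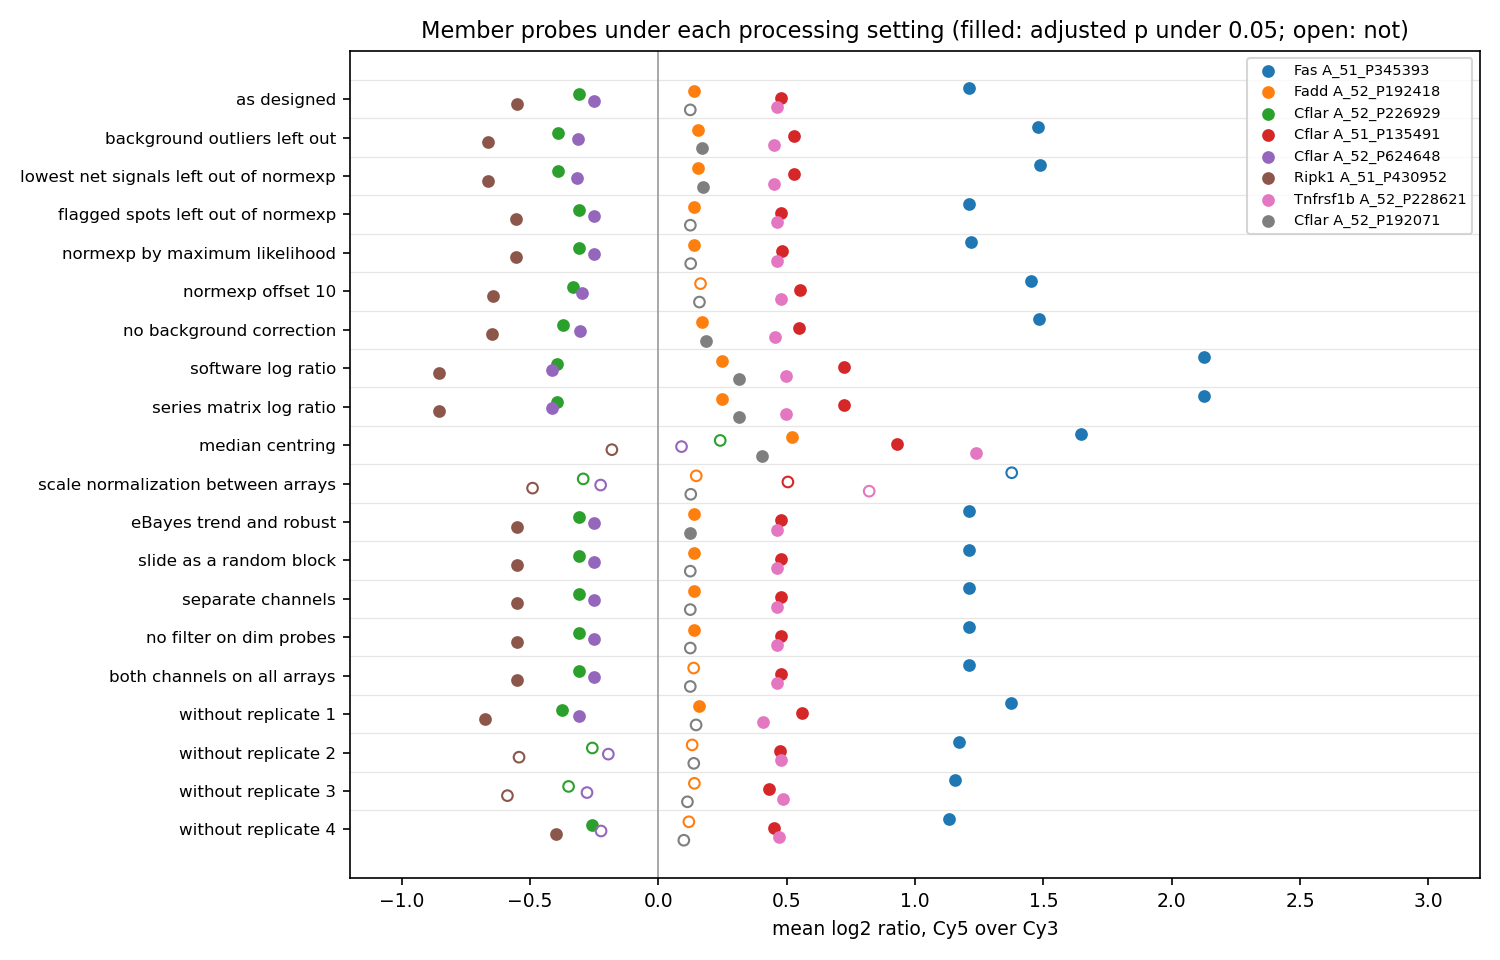
Mean log2 ratios of the 7 called member probes and of Cflar A_52_P192071 under each processing setting, filled where the adjusted p was under 0.05 and open where it was not. Fas lies between 1.13 and 2.12 in every row, while the lower probes of Cflar and Ripk1 lose their call when replicate 2 or 3 is left out.

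The pathway around the members was followed in 82 further genes, each by its brightest tested probe. Of these, 77 were tested, 22 were higher and 12 lower, against 19.7% higher and 13.7% lower, or 33.4% in all, of the 16969 tested genes, with a median of 0.03 against 0.04. With the probes of a gene averaged, 17 were higher and 15 lower. With bright surroundings left out 27 were higher and 16 lower, where 24.1% and 24% of all tested probes were so. Without replicate 2 or without replicate 3 the counts were 12 and 4, or 11 and 5. Over all 24101 tested probes these fits called 1349 higher and 845 lower, or 1684 and 1237. With arrays only centred on their median 60 were higher and none was lower (limma, also none at an unadjusted p under 0.05). Of all 24101 tested probes, 13971 were higher and 176 lower in that setting.

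Among death ligands, 2 of 4 tested genes were higher and none lower. Tnf, the ligand of Tnfrsf1a and Tnfrsf1b, rose by 0.86 ± 0.16 (SD, n = 4; limma, adjusted p = 9.97e-04), and Tnfsf10, which encodes TRAIL, rose by 0.32 ± 0.09 (adjusted p = 0.0058). Fasl, the ligand of Fas, had 2 probes and neither passed the filter on dim signal. Of 9 other receptors, Tnfrsf11b, the decoy receptor osteoprotegerin, rose by 0.74, while Tnfrsf12a, the TWEAK receptor, fell by 0.43 and Ltbr, the lymphotoxin beta receptor, fell by 0.22.

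Adaptors and ubiquitin enzymes of receptor complexes had 10 of 26 tested genes higher and 3 lower. Traf1, an adaptor of TNF receptors, had the largest change of the lists, with log2 ratios of 1.09, 1.44, 1.87 and 1.79 and a mean of 1.55 ± 0.35 (SD; limma, adjusted p = 0.0011). Tnfaip3, which encodes the ubiquitin-editing enzyme A20, rose by 0.76 and Traf3 by 0.69. Rbck1, a subunit of the linear ubiquitin ligase that acts on Ripk1, fell by 0.51.

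Of 15 death-effector relatives and modulators, 7 were higher and 3 lower, but 3 higher and 4 lower when the probes of a gene were averaged. Adam17, the protease that sheds TNF and its receptors, fell by 0.61 ± 0.47 (SD) and Dedd2 by 0.32, while Caap1 rose by 0.36 and Ptpn13, a phosphatase that binds Fas, by 0.29. A second Ptpn13 probe had -0.24, so that gene's direction depends on the probe. Among 18 caspases and genes of the mitochondrial arm, 2 were higher and 3 lower, or 1 and 4 with probes averaged. Parp1, an enzyme of DNA repair, fell by 0.50 and Bax, a pore-forming protein of mitochondria, by 0.39, while Casp4 rose by 0.23. Of 5 necroptosis genes only Pgam5 was called, and it fell by 0.35.

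**Figure D4:**
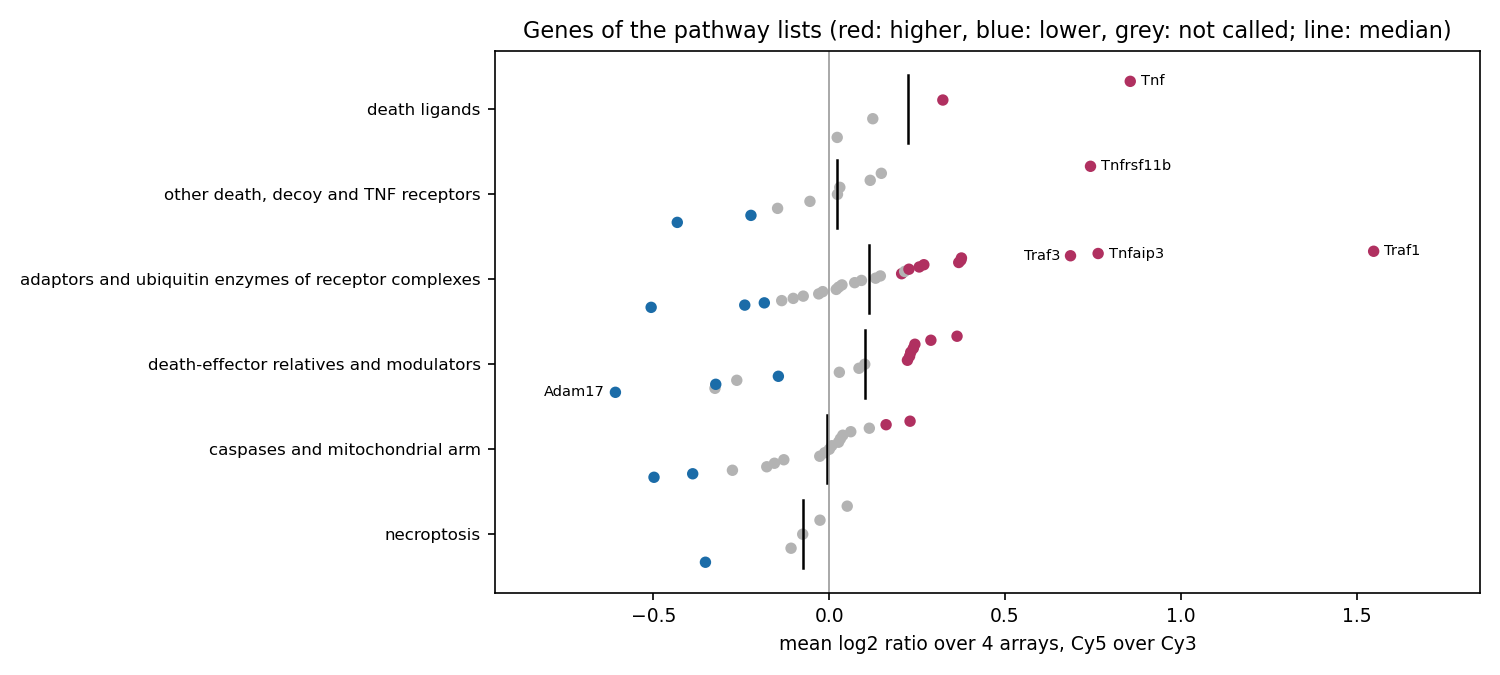
Mean log2 ratio over 4 arrays of tested genes of the 6 pathway lists, by its brightest probe, with red for higher, blue for lower, grey for not called and a line at the median of all tested genes of a list. Traf1 stands farthest to the right at 1.55 and Adam17 farthest to the left at -0.61, and the list medians lie between -0.08 and 0.22.

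The genes whose 4 log2 ratios were closest to those of Fas depend on the background estimate. Only genes with a plain symbol (no clone or locus names) were compared, each by its brightest tested probe. Over all spots the closest were Rpl23, Sema6d, Rpl12, Rpl34 and Rplp1, with a root mean square difference from Fas of 0.16 to 0.25. With bright surroundings left out they were Btg2, Rpl41, Sema6d, Relb and Traf1, at 0.25 to 0.31. Sema6d was in both sets.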

How the data were processed

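The deposited intensity values are mean spot brightness and median local background in each channel, from Agilent Feature Extraction 9.1 per the labels' protocols and the submitters' processing notes, before any correction. The deposited log10 ratios (scanner files and whole-series table) were background-subtracted and dye-normalized by the authors' software per the file headers, and served as alternatives. No genome build is named.

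Background was corrected with limma 3.58.1 (normexp, offset 50), log2 ratios were normalized by loess within arrays, control spots and outlier-flagged spots were left out, and spots of a probe were averaged. Probes well above background in 1 channel on at least 3 of 4 arrays, with at least 3 values, were tested (lmFit, eBayes, two-sided, Benjamini-Hochberg over all tested probes, threshold 0.05, R 4.3.3). The ratio is itself the difference within a pair. Nothing beyond the label "biological replicate" says how replicates were raised. The number of arrays limits the precision. The steps were tested on simulated data. Of 50 probes changed by 0.25 on the log2 scale, 8 were called in the right direction. For changes of 0.5, 1 and 2 it was 30, 45 and 50 of 50. The median estimate was 0.17 for a change of 0.25 and 0.38 for 0.5, so small changes were often missed in the simulation. Only 50 probes of each size were changed among 24101, whereas 34.2% of probes were called in the real data. The adjustment of p is stricter where few probes change, so these shares do not carry over to the real test.

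The fit over all spots is the designed one. After the member values had been seen, 4 other background estimates were made: without spots whose surroundings were flagged as non-uniform, without the lowest 0.05% of net signals, without outlier-flagged spots, and by maximum likelihood. The designed fit called 4360 probes higher and 3871 lower of 24101, and the first of these 4 called 5781 and 5753 of 23976. Members and gene lists were chosen with earlier results of these data known. Named genes are all members, up to 4 called genes of each list by size, and the 5 genes with a plain symbol closest to Fas. A called gene of the pathway lists is counted but not reported or drawn here.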

Additional observations from a re-analysis of the deposited data

Results flagged for a closer look

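Of the 17 tested member probes, 1 had an array that stood apart from its group of 4. Fas (A_51_P345393) had a log2 ratio of 0.71 on replicate 1, a gap of 0.85 of the whole range from the next array, above the limit set for 4 samples. With bright surroundings left out of the background estimate, the same array had 1.74 and did not stand apart. In that fit 3 other probes had such an array: Fadd A_51_P382925 on replicate 4 (-0.21), Casp8 on replicate 4 (-0.62) and Cflar A_52_P226929 on replicate 3 (-0.19). Chance marks about 1 in 20 such groups.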

How the results depend on the processing

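Over 15 settings other than leaving out an array (11 planned, 4 added after the values were seen), 231 of 254 member values kept their side of the threshold without a called reversal. The sign turned in 13 of the 254, 9 of them under median centring. It could not turn in the settings that changed only the filter, the eBayes step, the slide block or the channel model. Those settings keep the designed mean ratios (Fas 1.21). The software's and the series table's ratios were nearly the same values (Fas 2.12 in both), so they are not separate checks. Fas A_51_P345393, Tnfrsf1b A_52_P228621 and Cflar A_51_P135491 lost their call only under scale normalization between arrays, and kept it without each array in turn. Under scale normalization no probe was called (0 higher, 0 lower; 5872 with an unadjusted p under 0.05), so 0 members and 0 pathway genes were, with log2 ratios of 1.38 for Fas, 0.15 for Fadd A_52_P192418, -0.29, 0.50 and -0.23 for Cflar A_52_P226929, A_51_P135491 and A_52_P624648, -0.49 for Ripk1 and 0.82 for Tnfrsf1b. The cause was not tested.

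Under median centring, 13971 probes were higher and 176 lower, 9 members higher and 0 lower, and 60 pathway genes higher and 0 lower (limma; 0 members and 0 pathway genes lay lower at an unadjusted p under 0.05). The Cflar probes A_51_P326091, A_52_P226929 and A_52_P624648 and Tnfrsf1a turned to 1.06, 0.24, 0.090 and 0.27. Ripk1 A_51_P430952 lost its call at -0.18, and Fadd A_51_P382925, Cflar A_52_P192071 and Tnfrsf1b A_51_P278282 gained one at 0.83, 0.41 and 0.44. Cflar A_52_P192071 was also called at 0.17 with bright surroundings left out, 0.17 without the lowest net signals, 0.18 without background correction, 0.32 in the software's and in the series table's ratios, and 0.12 with trend and robust eBayes. Fadd A_52_P192418 lost its call with an offset of 10 (0.16) and when both channels had to be well above background on all arrays (0.14).

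Leaving out 1 array gave 1349 to 4580 probes higher and 845 to 5045 lower, 0 to 3 members lower, and 11 to 20 pathway genes higher and 4 to 16 lower. Over the same settings Fadd A_51_P382925 ranged from 0.011 to 0.16, Fadd A_52_P192418 from 0.12 to 0.16, Cflar A_52_P226929 from -0.37 to -0.26, Cflar A_52_P624648 from -0.31 to -0.20 and Ripk1 A_51_P430952 from -0.68 to -0.40. The main test is already paired, since each ratio is the difference within a pair, and no other replicate block could be fitted. Slide as a random block changed no member's call, but it could hardly remove one. Replicates 1 and 2 lay on 1 slide and replicates 3 and 4 on the other. The fitted correlation within slides was -0.056, and the calls over all probes rose to 4644 higher and 4110 lower. Dim probes such as those of Tnfrsf10b are limited by signal near background.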
